A study of Mus musculus with 6 samples.

Results

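Interferon-stimulated genes are the genes that cells switch on when they sense interferon, and the low level at which they run without infection is often called interferon tone. A list of 35 such genes, chosen by name, was followed in RNA of the cochlea, the coiled part of the mouse inner ear that detects sound. All 35 had a row in the deposited table of 30462 genes, and 21 passed the filter on low values and were among the 14072 genes tested. The 3 libraries labelled NEU4 KO (knockout replicates 2, 4 and 5) were compared with 3 labelled WT (wild type replicates 3, 4 and 5), all from cochleas of postnatal day 7. The product of Neu4 is a sialidase and removes sialic acid from glycoproteins and glycolipids. The labels give no strain, sex, allele or pooling, and do not say whether separate animals were used. Each p-value therefore reflects only how these 6 samples vary, which may be technical.

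Type I interferons bind a shared receptor, whose kinases Jak1 and Tyk2 act on transcription factors such as Stat2. A complex of Stat2 and Irf9 binds a DNA element with repeated GAAA cores, the interferon-stimulated response element (ISRE), in the promoters of target genes. Interferon gamma signals through Jak1 and Jak2 to a second element, the gamma-activated site (GAS). The targets include enzymes that block viral RNA and protein synthesis, RNA sensors, and large GTPases that attack vacuoles of intracellular microbes, and several encode parts of the pathway itself.

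The promoter stretches below show an element found in part of these genes, which was not used to choose them. Of the 35 members, 26 had a promoter in the RefSeq table (GRCm38.p6), a window of 250 bases before and 50 after the start site. For each member only the promoter nearest the gene's 5′ end was used. The share over all promoters counts every promoter listed, so the 2 shares are not counted alike. An ISRE-like match, GAAANNGAAA on either strand with overlapping matches allowed, was present in 14 of the 26 (53.8%), against 3.44% of all 32851 promoters. A GAS-like match, TTCNNNGAA, which can overlap an ISRE-like one, was present in 7 of the 26 (26.9%), against 8.30% of all promoters. A match describes the letters only. The stretches are written 5′ to 3′ along the gene's strand, with the ISRE-like letters in capitals (a match to the other strand reads TTTC in place of GAAA). They were picked among members with a match, to show both arrangements, single and stacked matches, in genes whose values are described below; the other 12 of the 26 have none. The 2 shortest, of Eif2ak2 and Gbp2, lie in or next to an annotated exon.
Eif2ak2, chr17:78882535-78882564, minus strand: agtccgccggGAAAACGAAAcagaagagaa
Gbp3, chr3:142559974-142560025, plus strand: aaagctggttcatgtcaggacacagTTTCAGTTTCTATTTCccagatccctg
Gbp2, chr3:142620594-142620623, plus strand: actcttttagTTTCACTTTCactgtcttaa
Ifit1, chr19:34640760-34640838, plus strand: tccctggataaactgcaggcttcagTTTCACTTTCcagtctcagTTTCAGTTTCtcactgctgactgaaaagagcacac
Ifit3, chr19:34583348-34583441, plus strand: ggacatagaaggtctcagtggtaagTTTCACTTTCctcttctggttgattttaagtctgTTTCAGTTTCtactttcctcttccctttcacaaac
Isg15, chr4:156200850-156200915, minus strand: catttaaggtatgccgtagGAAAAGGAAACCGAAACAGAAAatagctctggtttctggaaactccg
Rsad2, chr12:26456538-26456597, minus strand: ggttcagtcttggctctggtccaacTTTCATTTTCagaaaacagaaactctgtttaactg
Bst2, chr8:71537562-71537627, minus strand: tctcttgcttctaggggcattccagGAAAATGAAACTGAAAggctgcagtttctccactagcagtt
Oas1a, chr5:120907526-120907570, minus strand: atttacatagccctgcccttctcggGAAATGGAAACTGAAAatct
Igtp, chr11:58199497-58199555, plus strand: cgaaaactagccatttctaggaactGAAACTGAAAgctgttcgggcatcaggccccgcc

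Isg15 carries 3 overlapping matches, the first 78 bases before its start site. Ifit1 and Ifit3 carry 2 separate matches each. Gbp3, Bst2 and Oas1a carry pairs that share bases. In Eif2ak2 the match begins at base 19 of the transcript, within the annotated first exon.

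The values are FPKM, fragments per exon length and library size, so that levels can be compared between genes. The values imply totals of 15170973 to 17192293 fragments per library, and 1 fragment over 1 kilobase of exons was worth 0.0582 to 0.0659 FPKM. Neu4 itself had 18 fragments in each group. Its mean FPKM was 0.0797 ± 0.0255 (SD, n = 3) for knockout and 0.0779 ± 0.0242 (SD, n = 3) for wild type, with an exact two-sided permutation p = 0.8 (smallest possible 0.1). It therefore did not check the labels, and every direction below refers to the libraries as labelled. The tissue label was checked on marker lists. Hair cell genes (6 of 8 at a mean FPKM of at least 1), supporting cell genes (6 of 7) and genes of the stria vascularis (7 of 7) were present in both groups. Levels of Xist and Ddx3y showed knockout 2, wild type 3 and wild type 4 to be male and the others female.

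The mean FPKM over the 6 libraries had a median of 1.29 over the 35 members, beside 0.674 over all genes in the table, and 60.0% of the members passed the filter, beside 46.2% of all genes. The members ranged from 0.00803 for Ifi47 to 41.8 for Ifi27. Only Ifi27 and Bst2 stood above 10. Of the interferon genes themselves, 2 of 21 listed had a row, Ifnab with 1 fragment in wild type 5 and Ifnz with 3 fragments in knockout 4. The other 19 were not analysed here.

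**Figure D1:**
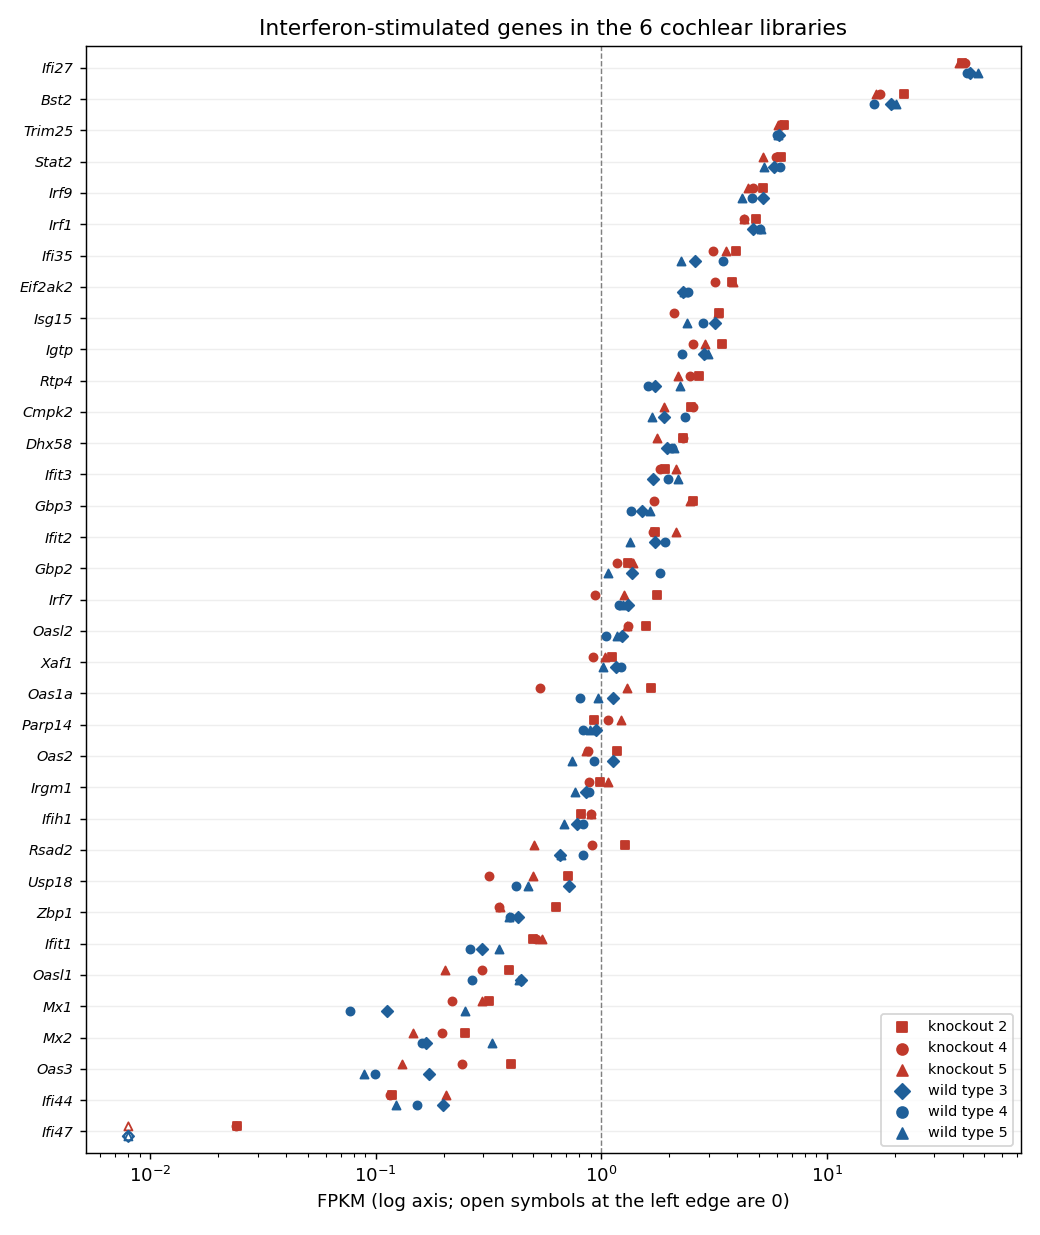
FPKM (log axis) of the 35 members in each library, ordered by mean level, with knockout libraries in red and wild type in blue, and the dashed line at 1 FPKM. Ifi27 and Bst2 lie far to the right of the rest, and the red and blue symbols of most genes interleave, while those of Eif2ak2 stand apart.

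No member passed the test between the genotypes. Of the 21 members tested, 0 had an adjusted p under 0.05 (limma on log2(FPKM + 1), Benjamini-Hochberg over all genes), where 47 of 14072 genes (0.334%) did, 0.128% higher and 0.206% lower. At an unadjusted p under 0.05 there were 4 members, Eif2ak2, Gbp3, Rtp4 and Ifi27, or 19.0% of those tested, beside 17.6% of all genes tested. The library values of the groups did not overlap for 4 of the 21 (19.0%), beside 24.8% of all genes tested; knockout was above in 3 (background 15.2%) and below in 1 (9.54%). Over all 35 members this held for 6, Eif2ak2, Gbp3, Oasl2, Ifit1 and Irgm1 with knockout above and Ifi27 with knockout below, beside 16% of all genes in the table. These shares were close to those of genes in general. In whole tissue, fewer cells of a type and less RNA per cell cannot be told apart.

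The median log2 fold change of the 21 members, knockout over wild type, was 0.03, beside 0.02 for all genes tested. Of the 21, 16 were on the higher side (76.2%), beside 56.9% of all genes tested. That count became 13 (61.9%) with median-ratio scaling, beside 48.5% of all genes under that scaling. It was 11 (52.4%) with the replicate number as a block, beside 55.1%, and 10 (47.6%) without knockout 2, beside 57.3%. With no filter, 26 of 35 members were on the higher side, beside 16991 of 30462 genes.

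**Figure D2:**
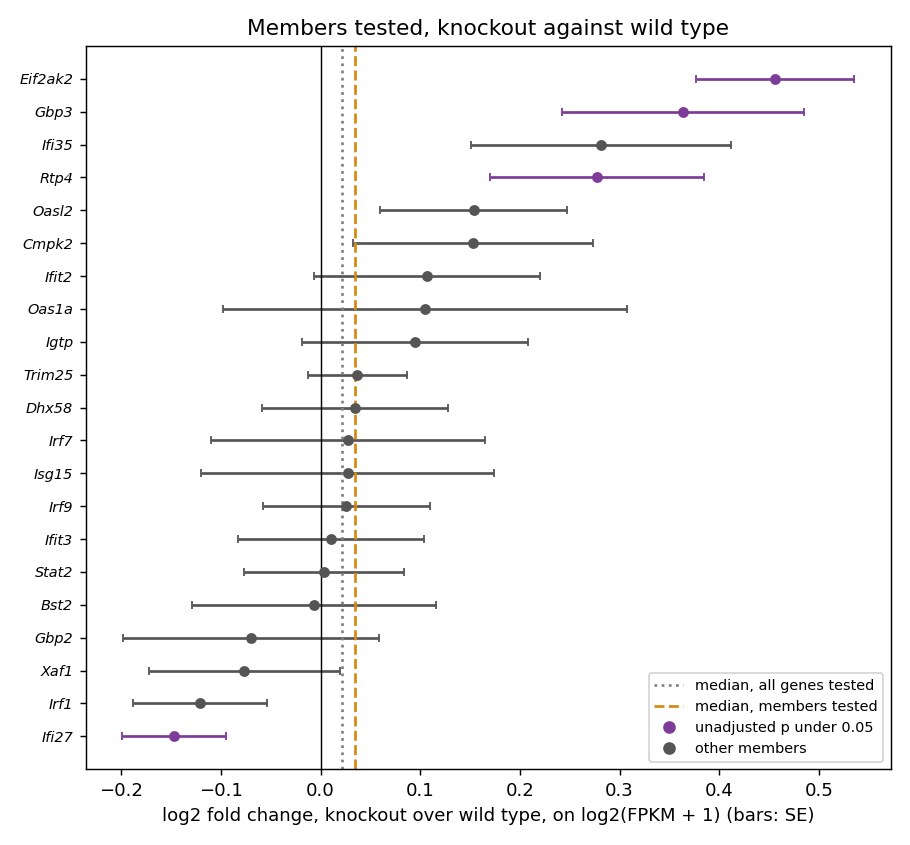
Log2 fold change (knockout over wild type, on log2(FPKM + 1)) of the 21 members tested, with bars of 1 SE; the dashed and dotted lines are the medians of these members and of all genes tested. Most points lie within about 1 SE of 0, Eif2ak2 lies farthest to the right at 0.46, and Ifi27 farthest to the left at -0.15.

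Eif2ak2 (ENSMUSG00000024079, chromosome 17, 78852564 to 78882573, minus strand) encodes PKR, the kinase that stops translation when it binds double-stranded RNA, and came closest to the threshold. Its FPKM was 3.80, 3.20 and 3.85 for the knockouts (2, 4 and 5), against 2.31, 2.43 and 2.34 for wild types 3, 4 and 5. The wild type libraries lay close together, and the lowest knockout stood above all of them. The log2 fold change was 0.46 (SE 0.079, n = 3, limma adjusted p = 0.0771). In fragments, 900 in knockout against 600 in wild type gave a ratio of 1.53, with a 95% interval of 1.38 to 1.70 that covers counting error only. With voom, which weights recovered fragments by their precision, Eif2ak2 was called (log2 0.61, SE 0.109, adjusted p = 0.0212), the 1 call among 20 members, where voom called 390 of 13796 genes (2.83%). It was also the 1 member called by voom without a filter, which called 1.34% of genes. Over the 17 alternatives in which it was tested, its adjusted p ran from 0.0211 to 0.343, and its log2 fold change from 0.42 to 0.61.

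Of the other antiviral effectors none was called. Rtp4, a chaperone of membrane receptors, had an FPKM of 2.704, 2.47 and 2.20 for the knockouts (2, 4 and 5), against 1.73, 1.61 and 2.23 for wild types 3, 4 and 5. Wild type 5 lay inside the knockout range, and the log2 fold change was 0.28 (SE 0.107, limma adjusted p = 0.2496). Bst2, the tetherin that holds budding virions at the cell surface, had an FPKM of 22.1, 17.1 and 16.6 in the knockouts and 19.3, 16.2 and 20.4 in wild type. Its group means were equal to 3 digits, at 18.6 ± 3.02 and 18.6 ± 2.19 (SD, n = 3), and knockout 2 held its highest value. Xaf1, a regulator of apoptosis, ranged from 0.92 to 1.23 FPKM. Parp14, an ADP-ribosyltransferase, and Zbp1, a sensor of Z-form nucleic acid that triggers necroptosis, fell under the filter, with means of 0.982 and 0.425 FPKM.

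Among the GTPases that attack microbial vacuoles, the values of Gbp3 and Gbp2, which lie close together, are given side by side. Gbp3 (chromosome 3, 142560026 to 142573209) had an FPKM of 2.56, 1.72 and 2.46 for the knockouts (2, 4 and 5), against 1.52, 1.35 and 1.65 for wild types 3, 4 and 5. The groups did not overlap, although knockout 4 was just above wild type 5 (log2 0.36, SE 0.122, limma adjusted p = 0.201). Gbp2, 47393 bases away with Gbp2b between them, had 1.31, 1.17 and 1.39 in the knockouts and 1.37, 1.83 and 1.07 in wild type (log2 -0.07, SE 0.129, adjusted p = 0.813). Both belong to a family of similar genes, so reads that fit more than 1 of them make these values uncertain. Whether the 2 genes differ in their response was not tested.

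Of the immunity-related GTPases, Igtp had 3.44, 2.54 and 2.87 FPKM in the knockouts and 2.85, 2.27 and 2.97 in wild type, and the groups overlapped. It overlaps Irgm2 on the same strand, so its reads may be uncertain. Irgm1, a regulator of this family, was apart but by little, at 0.992, 0.885 and 1.07 against 0.855, 0.881 and 0.765. Its fragment ratio was 1.17, with an interval of 0.982 to 1.40 that includes no difference. Ifi47 was close to absent from these libraries, with 1 fragment each in knockouts 2 and 4 and 0 elsewhere. It shares its locus with Olfr56.

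The 4 transcription factors of the pathway overlapped between the groups. Stat2, part of the complex that binds the ISRE, had an FPKM of 6.25, 5.92 and 5.23 for the knockouts (2, 4 and 5), against 5.86, 6.19 and 5.29 for wild types 3, 4 and 5. Irf9, the DNA-binding part of the complex, had 5.19, 4.71 and 4.45 against 5.20, 4.65 and 4.22. For both genes the groups covered nearly the same range. Irf1, which responds to interferon gamma through GAS, had 4.88, 4.28 and 4.28 in the knockouts and 4.72, 5.03 and 5.10 in wild type (log2 -0.12, SE 0.067, limma adjusted p = 0.392). Irf7, the amplifier of type I interferon production, had 1.76, 0.939 and 1.26 against 1.32, 1.202 and 1.24. Knockouts 2 and 4 held its highest and lowest values, on either side of all wild type libraries.

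Isg15, a ubiquitin-like protein attached to other proteins, had an FPKM of 3.33, 2.10 and 3.28 in the knockouts and 3.19, 2.81 and 2.40 in wild type. Its groups overlapped fully, and the knockout SD of 0.696 was larger than the difference of the means, 2.90 and 2.80. Usp18, which removes Isg15 and damps the receptor, was lower, with means of 0.508 and 0.535. These 2 genes had almost equal group means, and Usp18 was under the filter, with 15 to 33 fragments per library.

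The IFIT proteins bind viral RNA that lacks the cap marks of the host. Their genes lie on chromosome 19, with 7112 bases between Ifit2 and Ifit3 and 52140 between Ifit3 and Ifit1. Ifit1, which was under the filter, had 0.497, 0.512 and 0.546 FPKM for the knockouts (2, 4 and 5), against 0.296, 0.263 and 0.353 for wild types 3, 4 and 5. The groups were apart, and 67 against 40 fragments gave a ratio of 1.71 (95% interval 1.14 to 2.59, counting error only). In the voom fit without a filter its adjusted p was 0.410. Ifit2 (means 1.86 and 1.66) and Ifit3 (1.97 and 1.95) overlapped between the groups, so that Ifit1 was the 1 IFIT gene apart.

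The oligoadenylate synthetases make the messenger that activates RNase L. Oasl2, a relative with a ubiquitin-like tail, had 1.57, 1.31 and 1.30 FPKM in the knockouts and 1.24, 1.05 and 1.17 in wild type. Its groups were apart, with a log2 fold change of 0.15 (SE 0.094, limma adjusted p = 0.438). Oas1a varied 3.11-fold from its lowest to its highest library, at 1.66, 0.533 and 1.29 against 1.12, 0.802 and 0.963, and again knockouts 2 and 4 were the extremes. Oas3 had 47, 29 and 14 fragments in the knockouts and 20, 12 and 10 in wild type. Its ratio of 2.18 (interval 1.498 to 3.23) rested largely on knockout 2, and knockout 5 lay inside the wild type range. Oas2 (means 0.969 and 0.934) and Oasl1 (0.296 and 0.380) overlapped.

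Mx1 and Mx2 encode dynamin-like GTPases that trap viral nucleocapsids, and the deposited table lists both as polymorphic pseudogenes. Many laboratory strains carry defective alleles of them. Mx1 had 20, 14 and 17 fragments for the knockouts (2, 4 and 5), against 7, 5 and 15 for wild types 3, 4 and 5, a ratio of 1.92 (interval 1.19 to 3.19). Wild type 5 lay inside the knockout range. Mx2 had 35 against 39 fragments in all.

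Rsad2, or viperin, makes a nucleotide that ends viral RNA chains, and Cmpk2, its neighbour 12752 bases away, supplies the substrate. Cmpk2 had 2.51, 2.54 and 1.90 FPKM in the knockouts and 1.91, 2.36 and 1.68 in wild type, and Rsad2 had 1.27, 0.913 and 0.502 against 0.657, 0.832 and 0.664. In both genes knockout 5 was the lowest of its group and wild type 4 the highest of its own.

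The 3 genes of RNA sensing overlapped between the groups. Trim25, the ubiquitin ligase that activates RIG-I, had the smallest ratio of highest to lowest library among the tested members, 1.07, with 6.45, 6.24 and 6.09 FPKM in the knockouts and 6.14, 6.03 and 6.06 in wild type. Dhx58 (means 2.13 and 2.04) overlaps an antisense gene, Dhx58os, whose reads cannot be told apart from its own without strand. Ifih1, or MDA5, had means of 0.875 and 0.762, under the filter.

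Ifi27, a small protein of mitochondrial membranes, was the most abundant member and was on the lower side. It had an FPKM of 39.6, 40.8 and 38.4 for the knockouts (2, 4 and 5), against 43.1, 42.0 and 46.8 for wild types 3, 4 and 5. Every knockout library was below every wild type library, with a log2 fold change of -0.15 (SE 0.052, limma adjusted p = 0.216). Ifi35, a partner of the protein Nmi, had 3.96, 3.11 and 3.59 against 2.595, 3.47 and 2.25. Its groups overlapped through wild type 4 (log2 0.28, SE 0.131, adjusted p = 0.319). Ifi44 was at 0.146 and 0.157.

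Interferon tone was summarised as the mean of log2(FPKM + 1) over all 35 members in each library. It was 1.58, 1.42 and 1.47 for the knockouts (2, 4 and 5), against 1.44, 1.41 and 1.40 for wild types 3, 4 and 5. Knockout 2 stood above the rest, and knockout 4 lay inside the wild type range. The group means were 1.49 ± 0.083 and 1.42 ± 0.018 (SD, n = 3), a difference of 0.08. Without knockout 2 that difference was 0.03.

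Knockout 2 held the highest value of the 6 libraries in 17 of the 35 members. Among those tested this was 11 of 21 (52.4%), where knockout 2 was highest in 16.8% of all genes tested, and it was lowest in 0 of the 21. Within the knockout group it was highest in 14 of 21 (66.7%), beside 29.8% of all genes tested. Isg15, Irf7, Oas1a, Igtp, Bst2 and Ifi35 were among them, and Eif2ak2, Ifit2 and Ifit3 were not. The 3 wild type libraries shared the highest values of their group evenly, with 6, 7 and 8 of 21.

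**Figure D3:**
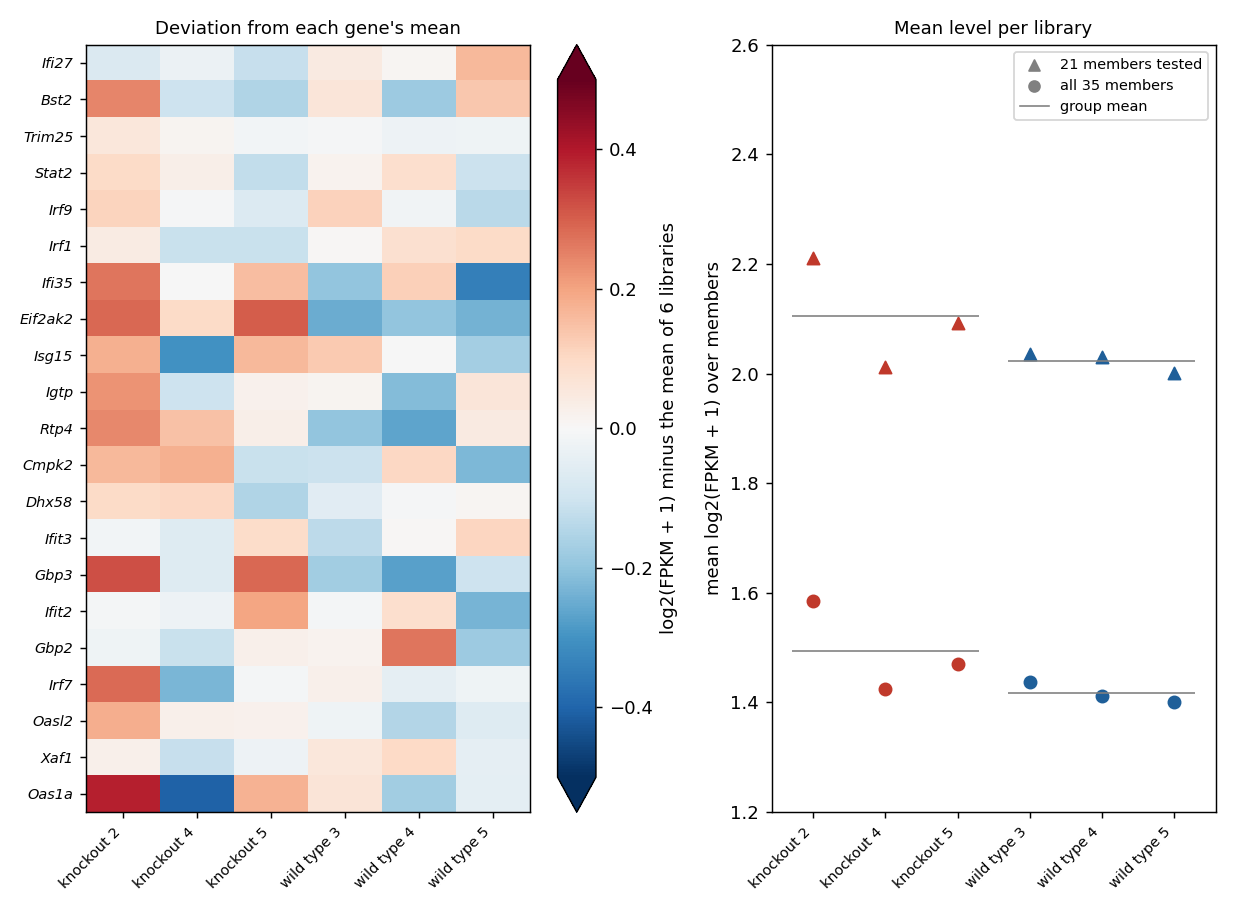
Left, log2(FPKM + 1) of the 21 members tested minus each gene's mean over the 6 libraries; right, the mean of log2(FPKM + 1) over the 35 members (circles) and the 21 tested (triangles) per library, with group means as lines. The column of knockout 2 is mostly red, and in both summaries knockout 2 is the highest point while knockout 4 lies at the level of the wild type libraries.

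Markers of cells that could carry these genes were compared between the libraries. All 10 macrophage markers were above 0 in every library, with a summed FPKM of 359.7 to 380.1 in knockout and 361 to 387 in wild type, and knockout 2 at 380.1 lay below wild type 5. As a mean of log2(FPKM + 1), the scale of the tone above, knockout 2 was the highest of the 6 libraries for these markers, at 4.599 beside 4.591 in wild type 5. The 5 monocyte markers summed to 342 to 390 against 340 to 398, nearly all of it Fn1. Their mean of log2(FPKM + 1) was 3.06, 3.15 and 2.88 in the knockouts (2, 4 and 5). In wild types 3, 4 and 5 it was 2.81, 2.90 and 2.67, and 4 of the 5 markers had a higher mean in knockout. The 9 neutrophil markers summed to 93.0 to 161 against 35.9 to 96.6, and 8 of the 9 had a higher mean in knockout. The other, Ltf, is also in the middle ear list and reached 23.1 in wild type 4. On the log2 scale the neutrophil list was at 3.46, 3.54 and 2.71 in the knockouts, against 2.36, 2.87 and 1.92 in wild type. The 7 B cell markers summed to 21.4 to 26.9 against 17.8 to 19.9, with knockout 2 the highest. All 7 had a higher mean in knockout. T and NK cell markers summed to 2.76 to 3.09 against 2.36 to 2.82, and 5 of 8 were at 0 in some library (Cd3d, Cd3g, Cd8a, Ncr1 and Nkg7). The 6 markers of plasmacytoid dendritic cells summed to 22.2 to 32.1 against 23.9 to 34.8, largely through Bst2, itself a member. On the log2 scale this list was highest in wild type 5, at 1.90 beside 1.69 in knockout 2. Its markers differed in their highest library. Siglech (0.155 to 0.284) and Bst2 were highest in knockout 2, Ccr9 in knockout 4 and Tcf4 in knockout 5. Cox6a2 and Ly6d were highest in wild type 5. The 8 endothelial markers summed to 115 to 123 against 127 to 140.
Middle ear epithelium markers summed to 13.04 to 104 against 387 to 735, and skeletal muscle markers to 29.6 to 246 against 139 to 616. The 7 osteoblast markers summed to 6664 to 8899 against 7137 to 8070, with knockout 2 the highest of all. Hair cell markers summed to 31.2 to 33.6 against 26.3 to 27.7 and those of the stria vascularis to 59.2 to 64.5 against 48.5 to 52.3, so that in both lists the groups were apart; 1 marker of the stria list was called. Knockout 2 was also the 1 male library of its group. The part of these differences in the levels of the members was not tested. With sex as a covariate the median log2 fold change of the 21 members was 0.10, beside 0.02 for all genes in that fit, and 0 were called.

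The rest of the pathway gave no call either. In 6 lists of ligands, receptors, sensors, regulators and further targets, 105 genes that are no members had a row and 67 were tested, and 0 passed (limma adjusted p, as above). At an unadjusted p under 0.05 there were 7, or 10.4% of the 67, beside 17.6% of all genes tested. The groups did not overlap for 14 of the 67 (20.9%), beside 24.8% of all genes tested. Knockout was above in 11 (16.4%, background 15.2%) and below in 3 (4.48%, background 9.54%). Of the 67, 46 (68.7%) were on the higher side, beside 56.9% of all genes, and with median-ratio scaling 37 (55.2%), beside 48.5%. The voom fit with the same filter called 0, and voom without a filter 1 (background 1.34%), Ly6e, with knockout lower.

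All 10 receptor and kinase genes were tested. The receptor chain Ifngr1, at 22.9, 21.4 and 21.6 against 21.6, 22.8 and 21.5 FPKM, stood above all members but Ifi27, and its groups overlapped. Jak1, shared by both interferon types, had 20.6, 20.95 and 22.0 in the knockouts and 19.3, 18.4 and 15.6 in wild type (log2 0.25, SE 0.078, limma adjusted p = 0.184). Jak2, of the interferon gamma receptor, had 11.7, 11.7 and 11.8 against 10.7, 9.20 and 8.42 (log2 0.29, SE 0.080, adjusted p = 0.151). In both kinases each knockout library was above each wild type library, and the knockouts were closely grouped. Tyk2, the other kinase of the list, overlapped between the groups (log2 0.02, SE 0.053, limma adjusted p = 0.869). Of the 10 genes, 3 (30%) had groups apart, all with knockout above. Over all genes tested 24.8% were apart, and 15.2% had knockout above.

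Of 13 sensing genes tested, Irf3, the factor that starts interferon transcription, was the most abundant, at 16.4, 14.0 and 14.7 against 14.3, 15.97 and 15.3 FPKM, with overlapping groups. Mavs, the adaptor of the RNA sensors, had 11.5, 11.1 and 12.2 against 12.7, 11.8 and 12.03. Of the 13, 4 (30.8%) had groups apart, beside 24.8% of all genes tested. Knockout was above in Tbk1, Tlr3 and Tlr9 (23.1%, background 15.2%) and below in Traf3 (7.69%, background 9.54%). The limma unadjusted p was under 0.05 for 2 of the 13 (15.4%), beside 17.6% of all genes tested. Among the negative regulators, 11 tested, Ptpn11 and Samhd1 had the highest levels and neither was apart between the groups, at 24.96, 24.2 and 24.8 against 25.2, 23.7 and 23.8, and at 14.7, 12.96 and 12.3 against 12.3, 12.5 and 11.4.

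Of the 30 further interferon-stimulated genes tested, 21 were on the higher side. Ifitm3, which blocks the entry of viruses, was the most abundant, at 50.8, 49.0 and 56.7 against 53.1, 62.6 and 51.1 FPKM. Ly6e, a lipid-anchored surface protein, had 43.1, 40.7 and 39.98 in the knockouts and 46.0, 53.6 and 47.8 in wild type (log2 -0.24, SE 0.063, limma adjusted p = 0.143). Its groups were apart with knockout below, as for Ifi27. Of the further GTPases 3 of 15 were tested, and Irgm2 (4.52, 3.81 and 3.66 against 3.87, 3.23 and 3.34) and Gbp9 (2.40, 2.31 and 2.18 against 1.86, 1.79 and 1.37) had the highest levels. Gbp9 was apart with knockout above (log2 0.31, SE 0.097, adjusted p = 0.182), and Irgm2 overlapped. Over all 15 further GTPases, 12 of them under the filter, 5 had groups apart, each with knockout above. In the whole table the groups were apart for 16% of genes, in either direction.

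**Figure D4:**
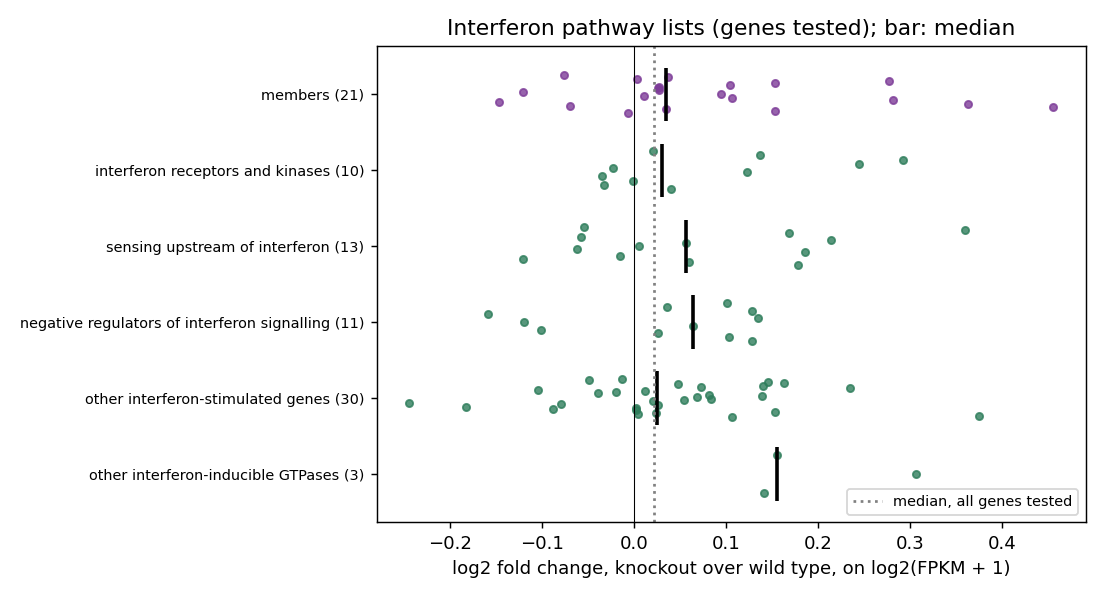
Log2 fold change (knockout over wild type, on log2(FPKM + 1)) of each gene tested in the member list and in 5 pathway lists, with the number tested in brackets, black bars at the list medians and a dotted line at the median of all genes tested. The medians lie between 0.02 and 0.16, the highest being that of the 3 further GTPases.

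Members with and without an ISRE-like match are given side by side, and no difference between them was tested. The 9 tested members with a match had a median log2 fold change of 0.03, from -0.07 to 0.46, and 7 were on the higher side. The 9 without one had a median of 0.04, from -0.12 to 0.28, and 7 were on the higher side, beside 56.9% of all genes tested. Eif2ak2 and Gbp3 have a match, whereas Ifi35 has none in this window. Groups that did not overlap were seen in 4 of 14 members with a match and 1 of 12 without, beside 16% of all genes in the table.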

How the data were processed

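RNA of 6 cochlear samples was sequenced with the VAHTS Universal V6 kit, per the labels' protocols. The authors deposited FPKM values per gene and library. Per the submitters' processing notes the genome was GRCm38. The aligner, the counter and the use of strand are not given. The test was limma (lmFit, eBayes with trend, two-sided) on log2(FPKM + 1), for genes that reached 1 FPKM in 3 or more libraries. P-values were adjusted after Benjamini and Hochberg, and 0.05 was the threshold. On this scale the change of low genes is understated. Fragments were recovered from FPKM and exon length (GENCODE M21), whole within 0.01 plus a relative 1e-06 for 29933 genes, Isg15 not among them. Ratio intervals are exact, at 95%. One listed gene, Tmem173, was matched by a synonym.

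The members and lists were chosen with earlier results of these data known. Named in full were members at an unadjusted p under 0.05, the 12 of highest mean and those with groups apart, and from each list the 2 of highest mean. Others named with every library's value (Irf7, Oas1a, Oas3, Mx1, Rsad2, Gbp2, Jak2) were chosen after their values were seen. The test was run on simulated data in which 200 genes changed by more than any tested member here. That run does not show whether changes of the members' size would be found. Alternatives changed the pseudocount, the filter, the scaling or the variance model, added sex or the replicate number, used voom, or left out 1 library. Statistics were computed in R 4.3.3 with limma 3.58.1, and figures with matplotlib 3.10.9 under Python 3.11.15 (scipy 1.17.1, pandas 2.3.3, numpy 2.4.6).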

Additional observations from a re-analysis of the deposited data

How the results depend on the processing

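No member was called under 16 of 18 alternatives, and 1, Eif2ak2, was called by voom on recovered fragments and by voom without a filter, the latter chosen after seeing the data. The pathway lists gave 0 calls except for 1 by voom without a filter. The 47 genes called over the whole table became 19 without a filter, 103 with an FPKM of at least 5, 19 without the trend, 104 with library weights, 24 with sex as a covariate, 390 with voom and 402 with voom and no filter, and 12 to 105 with 1 library left out. Causes were not tested. With the replicate number as a block the count was 22, members called stayed at 0, members at an unadjusted p under 0.05 went from 4 to 1 (Eif2ak2), and Eif2ak2 had a log2 of 0.42 (limma adjusted p = 0.343). Only the numbers 4 and 5 are shared by the groups, too few to show pairing. Deviations of same-numbered libraries correlated at 0.14 and 0.15, those of knockout 2 and wild type 3 at 0.11, and those of the other 6 pairs at -0.125 to -0.010. With median-ratio scaling 11 of 48 calls were higher, against 18 of 47. The members' median ran from -0.0057 to 0.11. The difference in interferon tone was 0.14 with a pseudocount of 0.1, and 0.03 to 0.11 with 1 library left out.

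Signs turned for members near 0. Isg15 went to -0.027 with library weights, and Irf9 to -9.21e-06 with median-ratio scaling. Stat2 went to -0.023 with median-ratio scaling, -0.0044 with library weights and -0.035 with the replicate block. Bst2 went to 0.062 with library weights, 0.023 with sex as a covariate and 0.00028 with voom. With 1 library left out, Isg15 ranged from -0.056 to 0.185, Irf9 from -0.035 to 0.089, Stat2 from -0.0495 to 0.065, Bst2 from -0.130 to 0.067 and Neu4 from -0.0148 to 0.0211. Counts of 12 to 23 fragments per library, as for Ifit1, limit what could be detected.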
